A study of Homo sapiens with 12 samples.

Results

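Cells build serine, glycine, proline and cysteine themselves when the supply does not meet demand, and the enzymes that do so belong to the programme of the transcription factor ATF4. Ribo-seq, the sequencing of mRNA fragments protected by ribosomes, was examined here for 10 such genes chosen by symbol: ASNS, PHGDH, PSAT1, PSPH, SHMT2, MTHFD2, ALDH18A1, PYCR1, CTH and ALDH1L2. ASNS was not analysed here. The other 9 genes were analysed out of 15798 genes in the table, and all 9 had at least 10 counts in at least 3 libraries, as did 12000 genes of the table. ALDH1L2 passed through its footprint libraries, since its input counts lay between 2 and 11.

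The cells were HCT116, an established human colorectal cancer line of epithelial origin, which had been given either DMSO, the solvent, or trametinib at 100 nM, a drug that blocks MEK and thereby ERK, for 24 h. From each of 3 biological replicates per treatment came a library of input RNA, broken at random, and a library of ribosome footprints left by RNase I. All cells received cycloheximide, which arrests ribosomes on the mRNA, shortly before lysis. This gave 12 libraries in 4 groups of 3. The p-values therefore describe the spread among these libraries of a single cell line.

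The libraries held 2276693 to 2845568 counts in input and 10127477 to 19181588 in footprints. Normalized counts below are counts divided by the size factor of each library, so that a change common to all mRNAs cannot be seen. In a bulk sample, a shift in the share of cells that express a gene and a shift in its mRNA per cell cannot be told apart. Of 8 epithelial markers, 7 reached 10 counts in an input library, among them EPCAM and CDH1, whereas VIL1 had 0 input counts. Of 7 markers of blood, stroma or endothelium, 2 reached 10 counts (COL1A1 and VWF), and none exceeded 36 counts in an input library. The ERK output gene DUSP6 averaged 1392 normalized input counts in DMSO and 6.58 in trametinib.

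Among the control libraries, those of DMSO replicate 1 deviated most. Of 7669 genes that averaged 100 or more normalized counts, 3.78% deviated from the mean of the other DMSO libraries by more than 1 on the log2 scale in input, and 3.79% in footprints. In DMSO replicates 2 and 3 this share was between 0.561% and 2.52%, and in the trametinib libraries it was at most 0.613%. Among 24 ATF4-linked stress genes in this comparison, 19 lay more than 1 above the other DMSO libraries in replicate 1, in input and again in footprints. Their median deviation was 1.42 and 1.48 there. It was -0.58 and -0.54 in DMSO replicate 2 and -1.11 and -1.37 in DMSO replicate 3, each set against a mean that includes replicate 1. The main changes and counts are therefore given with and without DMSO replicate 1. This replicate was singled out by its values in these data, those of ATF4-linked genes among them. For a gene that is highest in it, leaving it out moves the change upward. It also narrows the spread among the DMSO libraries of such a gene, so that an adjusted p can fall while the change shrinks, as for PSAT1. Calls gained, lost or kept in that way, and their adjusted p-values, are descriptions and not independent tests. The source of the deviation was not tested.

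As background, serine is made from a glycolytic intermediate in a chain of steps catalysed by PHGDH, PSAT1 and PSPH. In mitochondria SHMT2 splits serine into glycine and a one-carbon unit, which is carried by folate, is oxidised by MTHFD2 and can be released by ALDH1L2. Proline is made from glutamate, with ALDH18A1 at the entry and PYCR1 at the final step, and CTH yields cysteine from cystathionine. ATF4 induces genes of this kind in the integrated stress response, in which phosphorylation of the initiation factor eIF2 lowers general translation but favours translation of the ATF4 mRNA.

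Trametinib lowered 6 of the 9 genes in both assays. The 6 genes were PHGDH, PSAT1, PSPH, SHMT2, MTHFD2 and PYCR1, that is, the whole serine chain, both mitochondrial one-carbon enzymes with high counts and the final proline enzyme. No gene was called higher, and ALDH18A1, CTH and ALDH1L2 passed the test in neither assay. In input, 15.4% of all 12000 tested genes were called lower and 14.2% higher, and in footprints 24.1% were called lower and 24.3% higher (edgeR, adjusted p under 0.05). The same 6 genes were those whose 3 trametinib libraries all lay below the 3 DMSO libraries, which held for 21.6% of all genes in input and 28.8% in footprints. The median log2 change of the 9 genes was -0.72 in input and -1.07 in footprints, beside 0.01 for all tested genes in each assay. These medians were -0.46 and -0.49 without DMSO replicate 1, beside 0.02 and 0.03 for all genes. The members, like the gene lists below, were chosen with earlier results of these data known. Their shares and medians are therefore descriptions and not an independent test.

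**Figure D1:**
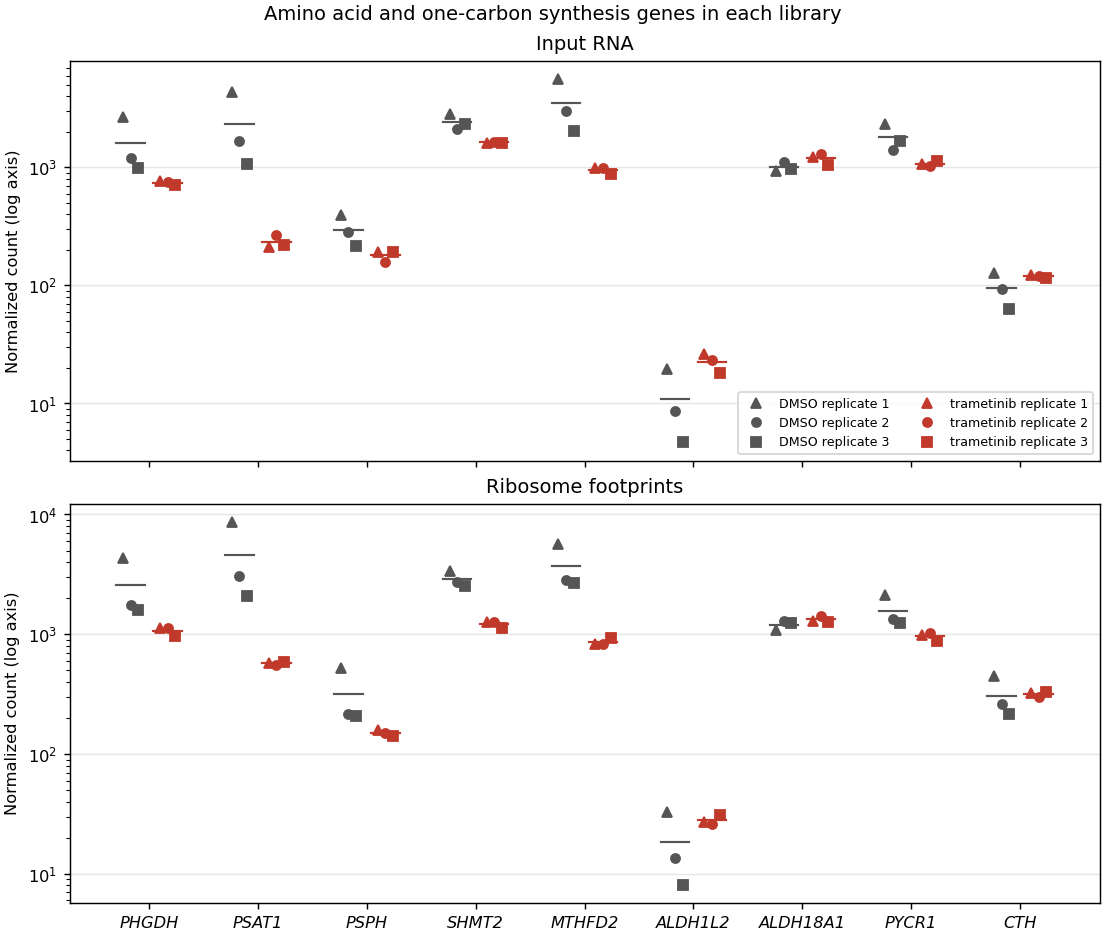
Normalized counts on a log axis of the 9 analysed genes in each of the 6 input libraries (top) and 6 footprint libraries (bottom). Each point is a library, its shape gives the replicate and short lines are group means. The trametinib points lie close together and below all DMSO points for the 6 called genes, while DMSO replicate 1 (triangles) is the highest DMSO library for every gene but ALDH18A1.

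The 9 genes together took up a smaller part of the libraries in trametinib. They held 0.314%, 0.187% and 0.161% of the counts in the DMSO input libraries and 0.104%, 0.107% and 0.0998% in the trametinib input libraries. In footprints the shares were 0.390%, 0.205% and 0.176% in DMSO against 0.112%, 0.114% and 0.105% in trametinib. The groups did not overlap in either assay, and the DMSO libraries spread far more than the trametinib libraries.

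The strongest decrease was that of PSAT1, the aminotransferase that passes an amino group from glutamate to the serine precursor (chromosome 9, 78297125 to 78330093, plus strand, GRCh38). In input it had 2009, 769 and 458 raw counts in DMSO and 88, 104 and 86 in trametinib. Normalized, these were 4334, 1662 and 1072 against 212, 268 and 221, or 2356 ± 1738 and 234 ± 29.9 (mean ± SD, n = 3). The lowest DMSO library was thus still several times above the highest trametinib library. The log2 change was -3.33 (SE 0.39, edgeR adjusted p = 3.56e-05). In footprints PSAT1 went from 8714, 3048 and 2092 normalized counts in DMSO to 572, 556 and 586 in trametinib. The 3 trametinib values differed little, with a coefficient of variation of 2.61% against 77.5% in DMSO. The footprint change was -3.01 (SE 0.43, edgeR adjusted p = 0.000766). Without DMSO replicate 1 the changes were -2.55 in input and -2.17 in footprints, and both remained called (edgeR adjusted p = 3.68e-09 and 7.9e-09). Trametinib levels were 9.91% of the DMSO mean in input, or 17.1% of the mean of DMSO replicates 2 and 3.

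PHGDH, the dehydrogenase that opens the serine chain (chromosome 1, 119648411 to 119744218, plus strand), was lowered less. Its normalized input counts were 2653, 1197 and 995 in DMSO and 770.1, 757 and 707 in trametinib. Its normalized footprint counts were 4372, 1756 and 1596 in DMSO and 1130.2, 1125 and 967 in trametinib. DMSO replicate 1 was 2.42 times the mean of the other DMSO libraries in input and 2.61 times in footprints, and all DMSO values were above all trametinib values. The log2 change was -1.12 in input (SE 0.28, edgeR adjusted p = 0.00918) and -1.26 in footprints (SE 0.34, edgeR adjusted p = 0.0139). With that replicate left out it was -0.56 and -0.64, and the calls were kept (edgeR adjusted p = 0.00853 and 0.000133).

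PSPH, the phosphatase that releases serine (chromosome 7, 56011051 to 56051604, minus strand), was the least firmly called of the 6 genes. It had 395, 283 and 215 normalized input counts in DMSO and 193, 157 and 193 in trametinib, so that the groups came close without overlapping. Its input change was -0.72 (SE 0.23, edgeR adjusted p = 0.0275). In footprints it had 523, 214 and 209 in DMSO and 159, 150.0 and 142 in trametinib, a change of -1.07 (SE 0.32, edgeR adjusted p = 0.0219). Without DMSO replicate 1 the input change of -0.46 was no longer called (edgeR adjusted p = 0.0923), while the footprint change of -0.49 was (edgeR adjusted p = 0.00211). Leaving out any single input library other than DMSO replicate 3 ended the input call of PSPH.

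Of the mitochondrial one-carbon enzymes, MTHFD2 (chromosome 2, 74186172 to 74217565, plus strand) showed the larger decrease. The normalized input counts of this dehydrogenase and cyclohydrolase were 5587, 3020.5 and 2039 in DMSO and 984, 996 and 874 in trametinib. Its footprint counts were 5628, 2867 and 2681 in DMSO against 835, 828 and 939 in trametinib. All trametinib libraries were far below the lowest DMSO library. The log2 changes were -1.90 in input (SE 0.27, edgeR adjusted p = 0.000184) and -2.10 in footprints (SE 0.26, edgeR adjusted p = 0.000263), and without DMSO replicate 1 they were -1.41 and -1.68.

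SHMT2, the serine hydroxymethyltransferase of mitochondria (chromosome 12, 57229573 to 57234935, plus strand), had a DMSO replicate 1 close to the other controls, at 1.29 times their mean in input and 1.28 times in footprints. It had 2858, 2115 and 2332 normalized input counts in DMSO and 1622, 1637 and 1625 in trametinib. It had 3406, 2754 and 2554 normalized footprint counts in DMSO and 1273, 1272 and 1122 in trametinib. Both assays thus separated the treatments, with footprints at 42.1% of DMSO and input at 66.8%. The changes were -0.58 in input (SE 0.15, edgeR adjusted p = 0.0102) and -1.25 in footprints (SE 0.14, edgeR adjusted p = 0.000118). The changes of SHMT2 were -0.45 and -1.12 without DMSO replicate 1, and both were still called (edgeR adjusted p = 0.018 and 5.39e-07).

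ALDH1L2, the mitochondrial formyltetrahydrofolate dehydrogenase (chromosome 12, 105019784 to 105107643, minus strand), was the gene with the lowest counts. Its raw counts were 9, 4 and 2 in DMSO input and 11, 9 and 7 in trametinib input. In footprints they were 90, 21 and 22 in DMSO and 88, 63 and 65 in trametinib, or 33.2, 13.7 and 8.11 against 27.0, 25.9 and 30.9 normalized counts. DMSO replicate 1 lay among or above the trametinib libraries in both assays, whereas DMSO replicates 2 and 3 lay below all of them. With all libraries no change was called (input 1.01, SE 0.53, edgeR adjusted p = 0.158, and footprints 0.58, SE 0.42, edgeR adjusted p = 0.284). Without DMSO replicate 1 ALDH1L2 was called higher, with 1.70 in input (SE 0.67, edgeR adjusted p = 0.0358) and 1.43 in footprints (SE 0.28, edgeR adjusted p = 0.000397). These calls arose by leaving out its highest DMSO library, and the remaining DMSO input libraries held 4 and 2 raw counts.

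The proline enzymes differed from each other. PYCR1, the mitochondrial reductase of the final step (chromosome 17, 81932384 to 81942412, minus strand), had 2353, 1404 and 1667 normalized input counts in DMSO and 1061, 1032 and 1134 in trametinib. In footprints it had 2111, 1352 and 1231 in DMSO and 983, 1023 and 887 in trametinib. The DMSO libraries were all higher than the trametinib libraries. The changes of PYCR1 were -0.75 in input (SE 0.18, edgeR adjusted p = 0.00741) and -0.70 in footprints (SE 0.19, edgeR adjusted p = 0.0157), and they were -0.51 and -0.42, both called, without DMSO replicate 1.

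ALDH18A1, the synthase that commits glutamate to proline (chromosome 10, 95605941 to 95656711, minus strand), ran from 929.7 to 1115 normalized input counts in DMSO and from 1049 to 1302 in trametinib. In footprints it ran from 1094 to 1285 in DMSO and from 1274 to 1430.2 in trametinib. The groups overlapped in both assays, and DMSO replicate 1 was the lowest rather than the highest DMSO library. The change was 0.25 in input (SE 0.15, edgeR adjusted p = 0.247) and 0.14 in footprints (SE 0.11, edgeR adjusted p = 0.321). It was 0.19 and 0.08 without DMSO replicate 1, again not called (edgeR adjusted p = 0.37 and 0.515).

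CTH, the lyase that makes cysteine (chromosome 1, 70411218 to 70439851, plus strand), had 127, 92.9 and 63.2 normalized input counts in DMSO and 123, 121 and 116 in trametinib. Its footprint counts were 447, 261 and 215 in DMSO and 323, 298 and 328 in trametinib. As for ALDH1L2, the trametinib libraries lay above DMSO replicates 2 and 3, and for CTH they all lay below DMSO replicate 1. The changes of 0.34 in input (SE 0.26, edgeR adjusted p = 0.354) and 0.04 in footprints (SE 0.24, edgeR adjusted p = 0.911) were not called. After removal of DMSO replicate 1 the footprint change was 0.42 (SE 0.12, edgeR adjusted p = 0.00693), and the input change was 0.61 (SE 0.26, edgeR adjusted p = 0.0774). That replicate was the highest DMSO library for CTH, so that its removal moved both changes upward.

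The counts over the 9 genes without DMSO replicate 1 were thus 5 lower and 1 higher in input and 6 lower and 2 higher in footprints. Over all 12000 genes the same fits called 16.6% lower and 15.2% higher in input, and 29.1% lower and 29.7% higher in footprints.

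**Figure D2:**
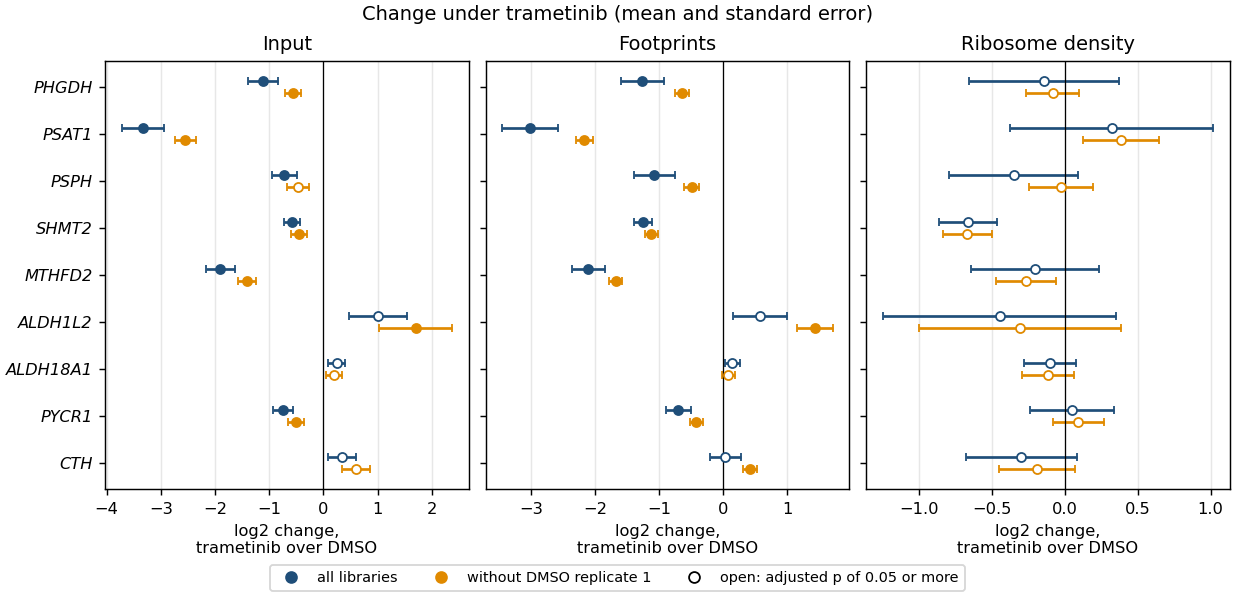
Log2 change of trametinib over DMSO with its standard error for each gene in input, footprints and ribosome density, from all libraries (blue) and without the DMSO libraries of replicate 1 (orange). Filled points have an edgeR adjusted p under 0.05. The 6 lowered genes stay left of 0 in both assays after the replicate is left out, CTH and ALDH1L2 move to the right, and no density point is filled.

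The order of the genes by normalized counts per kb of coding sequence also differed between the treatments. In DMSO footprints PSAT1 was highest with 4160.3 ± 3224 per kb, followed by MTHFD2 with 3548 ± 1572, but PSAT1 was the higher of the pair in only 2 of 3 libraries. SHMT2 (1921), PYCR1 (1635) and PHGDH (1610.4) came next, with overlapping ranges. ALDH18A1 had 505, PSPH 467 and CTH 253 per kb, again with ranges that overlapped between neighbours, and ALDH1L2 had 6.61. In trametinib footprints PYCR1 led with 1007 ± 73.0 per kb, and MTHFD2 (826) and SHMT2 (808) followed with overlapping ranges. PHGDH had 672, ALDH18A1 558, PSAT1 515, CTH 260.2 and PSPH 223 per kb, and the ranges of these neighbours did not overlap. The first place of PSAT1 rested on DMSO replicate 1, since over DMSO replicates 2 and 3 MTHFD2 led with a mean of 2642 per kb and PSAT1 followed with 2315. In trametinib PSAT1 stood in the sixth place, behind ALDH18A1.

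In input the order in DMSO was MTHFD2 (3380 per kb), PSAT1 (2122), PYCR1 (1890), SHMT2 (1610.5) and PHGDH (1010), each overlapping the next. Over DMSO replicates 2 and 3 of the input, MTHFD2 (2409) was followed by PYCR1 (1605), SHMT2 (1471) and only then PSAT1 (1231). In trametinib input PYCR1 (1124) and SHMT2 (1077) overlapped at the top, and PSAT1, with 210.4 per kb, was above only CTH (98.6) and ALDH1L2 (8.14).

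Ribosome density, footprints relative to input, was compared to ask whether translation of these mRNAs changed beyond their abundance. None of the 9 genes was called higher or lower, where 0.875% of all genes were called lower and 0.0417% higher (edgeR, adjusted p under 0.05). DESeq2 and limma-trend also called 0 of the 9. An unadjusted p under 0.05 was reached by 1 gene, SHMT2, and by 7.58% of all genes. The median density change of the 9 genes was -0.20, beside 0.00 for all genes.

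The log2 density of SHMT2, computed from input and footprints of the same replicate number, was 0.25, 0.38 and 0.13 in DMSO and -0.35, -0.36 and -0.53 in trametinib. The treatments did not overlap, and trametinib was lower, as it was for 8.74% of all genes. The change of -0.67 (SE 0.20) had an unadjusted p of 0.00449 and an edgeR adjusted p of 0.249, so that it was not called. It was called when input and footprints of the same treatment and number were treated as a pair (-0.67, SE 0.15, edgeR adjusted p = 0.0309), but not with this pairing after DMSO replicate 1 was left out (edgeR adjusted p = 0.16). Over the unpaired fits that left out 1 library or 1 replicate, the change of SHMT2 ranged from -0.80 to -0.54.

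PSAT1 was the gene with the opposite arrangement. Its log2 density was 1.01, 0.88 and 0.96 in DMSO and 1.43, 1.05 and 1.40 in trametinib, so that all trametinib values were higher, which was the case for 7.70% of all genes. The modelled change of 0.32 (SE 0.69, edgeR adjusted p = 0.987) was smaller than its error in the unpaired fit. In the fit that paired input and footprints by number it was 0.35 (SE 0.17, edgeR adjusted p = 0.473), larger than its error but not called. For PHGDH the unpaired change was -0.14 (SE 0.51) and for MTHFD2 -0.20 (SE 0.44). The standard errors of the 9 genes ran from 0.18 for ALDH18A1 to 0.80 for ALDH1L2 without the pairing and from 0.15 to 0.49 with it, and in both fits the changes of PHGDH and MTHFD2 were not called. Without DMSO replicate 1 the median density change of the 9 genes was -0.12, and 0 were called.

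**Figure D3:**
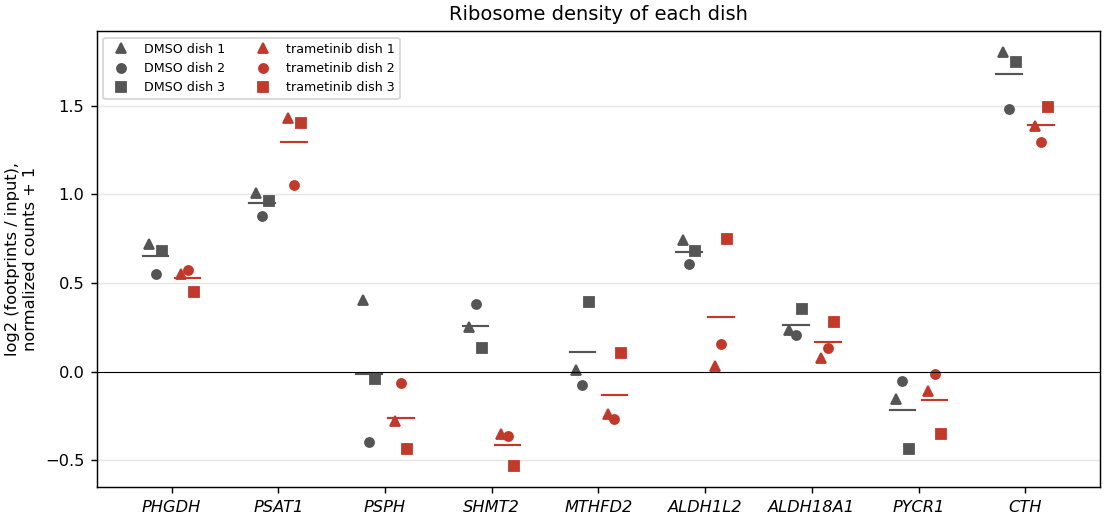
Log2 ratio of footprints to input (normalized counts with 1 added) for each gene and each of the 3 replicates per treatment, with group means as short lines. SHMT2 is lower in all trametinib replicates, PSAT1 is higher, and the treatments overlap for the other 7 genes.

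The genes spanned a wide range of density within DMSO. CTH had the highest density in DMSO, 1.68 ± 0.17 on the log2 scale (n = 3), above that of 95.8% of the 7669 genes that averaged 100 or more normalized counts. PSAT1 followed with 0.95 ± 0.07, and PYCR1 was lowest with -0.22 ± 0.20, above 34.2% of genes.

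The promoters are shown for PSAT1, MTHFD2 and PHGDH, which fell together, and for CTH, which was not called. The RefSeq promoter table (GRCh38.p14, 250 bases before to 50 after the start) held 5 of the 9 genes, these and ALDH18A1, and had no entry for PSPH, SHMT2, PYCR1 and ALDH1L2. Capitals mark CCAAT, the letters bound by the factor NF-Y. The windows lie at chr9:78296875-78297174, chr2:74198365-74198664, chr1:119711684-119711983 and chr1:70411018-70411317, all on the plus strand. Positions count from the RefSeq start of each window. For PHGDH and MTHFD2 this start lies well inside the Gencode gene span given above, not at its first base.
PSAT1: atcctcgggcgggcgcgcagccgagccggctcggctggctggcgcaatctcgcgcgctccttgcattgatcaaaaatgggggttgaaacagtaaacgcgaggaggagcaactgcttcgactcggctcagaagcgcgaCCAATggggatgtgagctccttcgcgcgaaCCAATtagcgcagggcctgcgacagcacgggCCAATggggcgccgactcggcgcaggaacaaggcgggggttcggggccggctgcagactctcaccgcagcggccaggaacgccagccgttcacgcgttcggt
MTHFD2: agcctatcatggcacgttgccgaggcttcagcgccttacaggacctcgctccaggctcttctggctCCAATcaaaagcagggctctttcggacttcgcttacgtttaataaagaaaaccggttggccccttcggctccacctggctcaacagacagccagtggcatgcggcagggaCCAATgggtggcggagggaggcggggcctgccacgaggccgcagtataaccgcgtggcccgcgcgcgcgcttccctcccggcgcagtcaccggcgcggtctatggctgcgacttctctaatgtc
PHGDH: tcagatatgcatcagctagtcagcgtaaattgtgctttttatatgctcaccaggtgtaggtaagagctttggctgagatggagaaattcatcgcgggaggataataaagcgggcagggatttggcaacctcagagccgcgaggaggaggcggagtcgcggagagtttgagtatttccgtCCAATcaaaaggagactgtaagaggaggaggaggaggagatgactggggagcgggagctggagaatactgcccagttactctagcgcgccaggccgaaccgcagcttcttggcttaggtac
CTH: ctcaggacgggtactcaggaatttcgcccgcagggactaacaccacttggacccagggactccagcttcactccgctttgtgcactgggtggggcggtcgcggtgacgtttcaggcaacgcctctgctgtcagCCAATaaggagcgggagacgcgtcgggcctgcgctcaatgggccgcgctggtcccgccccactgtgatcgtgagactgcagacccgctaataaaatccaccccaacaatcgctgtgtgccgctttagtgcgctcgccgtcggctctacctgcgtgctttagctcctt

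On both strands, CCAAT occurred 3 times in the PSAT1 window, with first bases at positions -113, -83 and -52 from the start. It occurred at -184 and -74 in MTHFD2, at -71 in PHGDH and at -117 in CTH. CCAAT was held by 34.6% of 35116 promoters. CACGTG, held by 7.26% of promoters, was found in ALDH18A1 at -136. TGATGNAA, the letters of the composite element of C/EBP and ATF factors (3.62% of promoters), and TGACGTCA (1.85%) were in none of the 5 windows, which says only that these letters are not in these stretches. A match is a description of the sequence, and binding was not measured.

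The gene that encodes ATF4 itself was lower in both assays. ATF4 had 6756, 4500.4 and 3777 normalized input counts in DMSO and 1598, 2036 and 1756 in trametinib. Its footprint counts were 3173, 1616 and 749 in DMSO and 202, 205 and 178 in trametinib. The groups did not overlap, and DMSO replicate 1 was again the highest. The changes were -1.48 in input (SE 0.20, edgeR adjusted p = 9.04e-05) and -3.24 in footprints (SE 0.41, edgeR adjusted p = 0.000389). The density change of -1.76 (SE 0.50, edgeR adjusted p = 0.214) was not called by edgeR with all libraries, but it was called by DESeq2. It was -1.39 once DMSO replicate 1 was left out (SE 0.30, edgeR adjusted p = 0.0192).

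Most of the ATF4-linked stress genes were lower as well. This list was chosen with earlier results of these data known, so that its shares are descriptions and not an independent test. Of 29 tested genes in a list of 32, 25 (86.2%) were lower and 0 higher in input, and 25 were lower and 0 higher in footprints, where 15.4% and 24.1% of all genes were lower in input and footprints and 14.2% and 24.3% were higher. The median change was -1.66 in input and -1.96 in footprints. CHAC1, which degrades glutathione, changed by -4.87 in input and -5.30 in footprints. TRIB3, a pseudokinase, changed by -4.46 and -4.56, and the secreted stress factor GDF15 by -4.34 and -4.99. DDIT3, which encodes the transcription factor CHOP, changed by -4.03 and -5.12. In density edgeR and limma-trend called 0 genes of the list and DESeq2 called 1, ATF4, which was also the 1 gene with an unadjusted p under 0.05. With DMSO replicate 1 left out, 21 genes (72.4%) were lower in input and 25 (86.2%) in footprints, and 0 were higher in either. In these fits 16.6% and 29.1% of all genes were lower, and 15.2% and 29.7% were higher. The medians of the list were -1.20 and -1.26, beside 0.02 and 0.03 for all genes.

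The other serine, glycine and folate genes were mixed. Of 24 tested genes in a list of 28, 9 (37.5%) were lower and 3 (12.5%) higher in input, beside 15.4% and 14.2% of all genes. In footprints 11 (45.8%) were lower and 3 (12.5%) higher, beside 24.1% and 24.3% of all genes. The share of higher genes was thus near the background in input and below it in footprints. The medians were -0.39 and -0.37. TYMS, the thymidylate synthase, changed by -2.96 in input and -3.19 in footprints. SLC19A1, the reduced folate carrier, changed by -1.20 in input, and MTHFD1L, which makes formate in mitochondria, by -1.18 in footprints. Leaving out DMSO replicate 1, 10 genes (41.7%) were lower and 4 (16.7%) higher in input, beside 16.6% and 15.2% of all genes. In footprints 14 (58.3%) were then lower and 3 (12.5%) higher, beside 29.1% and 29.7% of all genes.

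The closest relatives of the one-carbon enzymes were not called with all libraries. SHMT1, the cytosolic counterpart of SHMT2, had 270, 398 and 534 normalized input counts in DMSO and 344, 255 and 316 in trametinib. Its groups overlapped, and its changes of -0.39 in input (SE 0.23, edgeR adjusted p = 0.224) and -0.17 in footprints (SE 0.22, edgeR adjusted p = 0.543) were not called. DMSO replicate 1 was the lowest DMSO library for SHMT1, and without it the changes of -0.61 and -0.41 were called (edgeR adjusted p = 0.0206 and 0.00333). MTHFD2L, the relative of MTHFD2, changed by 0.15 in input (SE 0.27, edgeR adjusted p = 0.72) and -0.10 in footprints (SE 0.20, edgeR adjusted p = 0.707), and by 0.19 and -0.18 with DMSO replicate 1 left out, not called. ALDH1L1, the cytosolic relative of ALDH1L2, was below the filter with at most 5 counts in a library.

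AHCY, which clears S-adenosylhomocysteine after methylation, was the only gene of the 3 lists called in density by edgeR with all libraries, and DESeq2 and limma-trend called it as well. Its normalized input counts were 3201, 2994 and 3486 in DMSO and 2727, 2856 and 2689 in trametinib, and its footprint counts were 2747, 3578 and 3805.0 in DMSO against 1627, 1552 and 1645 in trametinib. Input changed by -0.23 (SE 0.14, edgeR adjusted p = 0.229), footprints by -1.07 (SE 0.14) and density by -0.84 (SE 0.18, edgeR adjusted p = 0.0458). The density change was -0.97 without DMSO replicate 1 (SE 0.16, edgeR adjusted p = 0.00217).

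Of 19 tested genes among 21 listed for proline, glutamate, aspartate and arginine, 7 (36.8%) were lower and 3 (15.8%) higher in input, beside 15.4% and 14.2% of all genes. The same numbers were found in footprints, beside 24.1% and 24.3% of all genes, so that the share of higher genes was near the background in input and below it in footprints. The medians were -0.55 and -0.25, and edgeR, DESeq2 and limma-trend called 0 density changes, with 1 unadjusted p under 0.05. GOT1 and GPT2, transaminases that yield aspartate and alanine, changed by -1.98 and -1.89 in input and by -1.99 and -1.57 in footprints. PYCR3, a relative of PYCR1, changed by -0.64 in input (SE 0.29, edgeR adjusted p = 0.106) and -0.25 in footprints (SE 0.16, edgeR adjusted p = 0.231), neither of them called, and by -0.78 and -0.29 with DMSO replicate 1 left out, not called either (edgeR adjusted p = 0.0549 and 0.137). ALDH4A1, which breaks down proline, rose by 1.32 in input and 0.98 in footprints. ASS1, which joins citrulline and aspartate, rose by 1.06 in input, and its footprint change of 0.77 was not called (edgeR adjusted p = 0.0839). In the fits that left out DMSO replicate 1, 6 genes (31.6%) were lower and 3 (15.8%) higher in input, beside 16.6% and 15.2% of all genes. In footprints 8 (42.1%) were then lower and 4 (21.1%) higher, beside 29.1% and 29.7% of all genes.

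**Figure D4:**
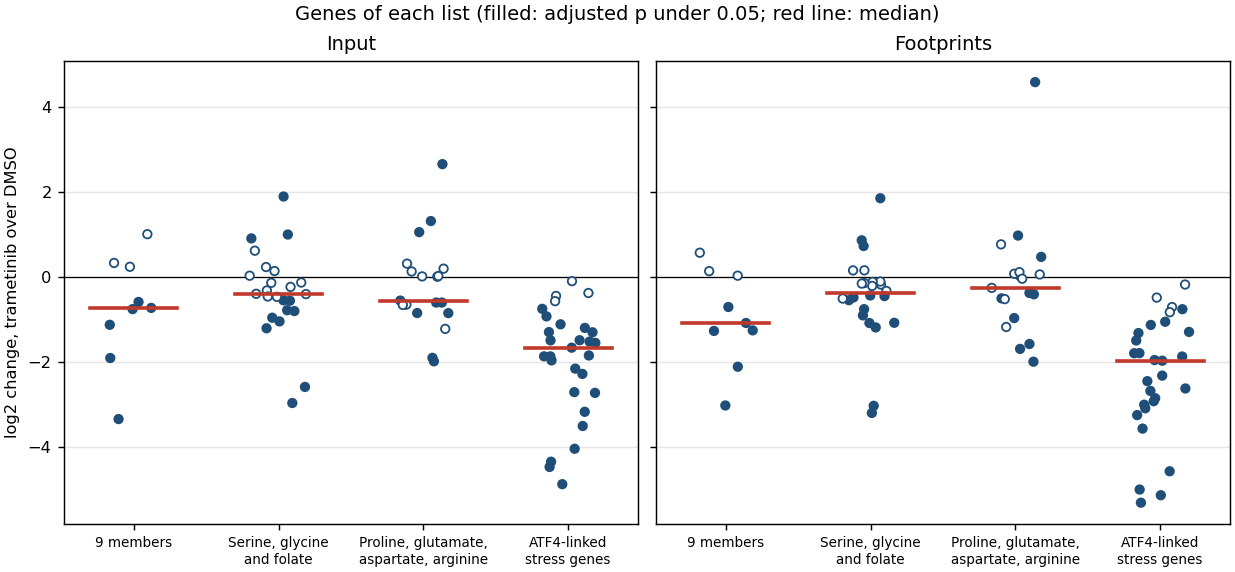
Log2 change of trametinib over DMSO in input (left) and footprints (right) for the tested genes of each list, with filled points at an edgeR adjusted p under 0.05 and red lines at the medians. The ATF4-linked stress genes all lie below 0, while the other lists hold changes in both directions.

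The genes whose levels followed the mean profile of the 9 genes most closely over the 12 libraries were HERPUD1, PTPDC1, PCK2, SARS1, EREG, DDIT4, VEGFA, ERRFI1, TNFRSF10B and GADD45A. Pearson's r on log2 normalized counts, centred within each assay, ran from 0.996 for HERPUD1 to 0.982 for GADD45A among 7661 genes. The libraries share treatment and replicate, and DMSO replicate 1 weighs on every such profile. Of the 9 genes, PHGDH followed their mean most closely with an r of 0.994, and PSPH, MTHFD2, PYCR1 and PSAT1 lay between 0.941 and 0.971. SHMT2 had 0.864, CTH 0.303, ALDH1L2 -0.02 and ALDH18A1 -0.68. Each of the 9 genes is itself part of this mean, so that these values cannot be set beside those of genes outside it.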

How the data were processed

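Input RNA and ribosome footprints were sequenced by the authors, who removed adapters, discarded rRNA and tRNA reads with Bowtie (1.2.2), mapped the rest to Gencode V38 transcripts and counted reads of 25 to 35 nt in open reading frames of a single gene symbol. The deposited table holds raw counts and a normalized signal (counts divided by size factors) per library. Its log2 fold changes and adjusted p-values are the comparisons of the authors (DESeq2 1.46.0) and were not used.

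In 12 of 12 libraries, recomputed median-of-ratios size factors were equal to the deposited ones. Genes that reached 10 counts in 3 or more libraries were tested with the quasi-likelihood test of edgeR (4.0.16, R 4.3.3), within input, within footprints and, for ribosome density, as the interaction of assay and treatment over 12 libraries. P-values were adjusted by Benjamini-Hochberg over 12000 genes, with a threshold of 0.05. DESeq2 (1.42.0) and limma-trend (3.58.1, prior count 2) served as alternatives. The scripts were tested on simulated data.

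The members and lists were chosen with earlier results of these data known. Named were all members, ATF4, close relatives, up to 4 called genes per list and assay with the largest change (mean of at least 50 normalized counts), genes called in density and the 10 genes most like the mean profile of the members (mean of at least 100). Some genes that this rule names are not reported here. Coordinates and coding lengths are from Gencode on GRCh38. Input libraries were shallower than footprint libraries.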

Additional observations from a re-analysis of the deposited data

How the results depend on the processing

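With another normalization (TMM), no filter or an input filter on low counts, DESeq2 or limma-trend, the numbers of members called were the same as in the report. The input filter removed ALDH1L2, which was therefore not tested under it. Requiring a change of at least 2-fold left 3 genes lower in input and 5 in footprints. With a replicate block the numbers were 6 lower in input, 6 in footprints and 0 in density, and with a replicate block for each dish 1 gene, SHMT2, was lower in density (-0.67, edgeR adjusted p = 0.0309). By the methods input and footprints share a lysate, but the labels give equal numbers only and do not say that these mark the lysate. Deviations from group means correlated at 0.816, 0.181 and 0.343 between input and footprints in DMSO replicates 1, 2 and 3. They correlated at 0.141, 0.0803 and -0.12 in trametinib, and at 0.0484 to 0.334 between treatments (Pearson's r over 7669 genes). Input and footprints of DMSO replicate 1 thus deviated together, while for the other replicates these values did not settle the pairing. The added fit with the dish block and without DMSO replicate 1 called 0 genes.

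Leaving out 1 library in turn, 0 to 1 genes were higher and 5 to 6 lower in input, 0 to 2 were higher and 3 to 6 lower in footprints. Over all 12000 genes these fits called 1118 to 1826 higher and 1253 to 1987 lower in input. In footprints they called 2161 to 3560 higher and 2138 to 3489 lower. The 3 members came without trametinib footprints replicate 3, where PHGDH, PSPH and PYCR1 lost their calls (edgeR adjusted p = 0.064, 0.0809 and 0.0687). PSPH lost its footprint call also without trametinib footprints replicate 1 or 2 (0.0522 and 0.0694). The CTH footprint change ranged from -0.17 to 0.42. Density changes that turned direction ranged from -0.46 to 1.17 for PSAT1, -0.19 to 0.33 for PYCR1, -0.70 to 0.48 for PHGDH, -0.69 to 0.22 for MTHFD2, -0.61 to 0.23 for PSPH, -0.57 to 0.0801 for CTH and -1.16 to 0.40 for ALDH1L2, with the extremes where only the input or only the footprint library of a replicate was left out. Leaving out both libraries of a replicate, the change of PYCR1 ranged from -0.04 to 0.15, and the others kept their direction (PSAT1 0.25 to 0.45, PHGDH -0.18 to -0.08, MTHFD2 -0.32 to -0.12, PSPH -0.53 to -0.03, CTH -0.39 to -0.19, ALDH1L2 -0.66 to -0.29). The cause was not tested. Of 447 member values compared, 416 changed neither direction nor call, 17 turned direction, 10 lost and 4 gained a call. The main fits called no density change of a member, and no change of ALDH18A1, CTH or ALDH1L2. Such values had no call to lose, so that the 10 losses all fell on the remaining input and footprint values. Over all 12000 genes, 5 had higher and 105 lower density. Higher were 36 with DESeq2, 8 with the replicate block, 19 with the dish block, 15 at an adjusted p under 0.1, and 0 to 14 with 1 library or replicate left out. Lower were 149 with DESeq2, 146 with the dish block, and 23 to 136 with 1 library or replicate left out (31, 23 and 46 without both libraries of trametinib replicate 1, 2 or 3).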
